A study of Mus musculus with 6 samples.

Results

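The Hox genes are the homeobox genes of 4 clusters in the mouse. They were taken as every probe, control spots apart, whose transcript accession belongs to a gene named Hox with a cluster letter from a to d and a position number. The arrays carried 43 such probes of 39 genes among 55681 probes, and 4 genes, *Hoxa9*, *Hoxa13* and *Hoxb3* among them, had 2 probes each. The scanner software flagged 34 of the 43 probes, from 32 genes, as well above background on 1 or more of the 6 arrays, as it did 44119 of all probes.

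Hox proteins are transcription factors that bind DNA through a homeodomain, and they tell cells where along the body axis they lie. The genes sit in 4 clusters, HoxA to HoxD, and within a cluster the low numbers are used towards the head and the high numbers towards the tail, an order known as collinearity. In the female tract the high-numbered HoxA genes are known to mark successive stretches of the Müllerian duct, with *Hoxa9* in the future oviduct, *Hoxa10* and *Hoxa11* in the uterus and *Hoxa13* in the upper vagina.

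Fluorene-9-bisphenol (BHPF) is a bisphenol used in plastics sold as free of bisphenol A, and the study asked whether it acts against oestrogen. Immature female CD-1 mice received BHPF at 50 mg per kg body weight, or peanut oil as the control, by gavage once a day for 3 days. They were 24 days old when the tissues were collected. Liver, ovary and uterus of each treatment gave 1 one-colour array each, hybridized with the labelled RNA of a pool from 3 mice, so 6 groups had 1 array each. The 3 tissues were collected from the mice of each treatment group, so their pools may hold the same animals. No second pool was hybridized, and the spread between mice was therefore not measured.

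A single slide, scanned once, held the 6 arrays, with the controls in row 1 and BHPF in row 2, so that row and treatment cannot be told apart. In the deposited table of log2 values the column for the control uterus matched the scanner file of the BHPF uterus and the reverse, for each of 38802 probes to within 0.001 log2 units. The scanner files' own labels were used here, and if the table's headings are the right ones, every sign given for BHPF in the uterus turns. The BHPF uterus array also carried hepatocyte transcripts: all 9 hepatocyte markers were at least 2-fold brighter there than on the control uterus array. Their summed intensity, in units of each array's 75th percentile, was 3.06 for the control uterus and 39.9 for the BHPF uterus. Liver gave sums of 373 (control) and 359 (BHPF). Hepatocyte signal was present in the ovary too, with sums of 8.29 (control) and 9.96 (BHPF). There 8 of the 9 markers passed the background flag for either treatment. The tissue labels otherwise mostly matched their markers. Called higher in the ovary than in liver and uterus were 6 of 6 oocyte genes, and 6 of 6 uterine epithelial genes were higher in the uterus than in the ovary. Against liver, 2 of the 6 epithelial genes were called higher in the uterus and 1 lower. Of 8 granulosa and theca genes, 7 were called higher in the ovary than in liver, but *Foxl2* was brightest in liver, at 5.12 and 5.19. All probes had 18.3% called higher in the ovary and 18.0% in the uterus than in liver, and 8.96% higher and 7.18% lower in the uterus than in the ovary. Of all probes, 7.09% in liver, 1.27% in the ovary and 2.65% in the uterus differed between BHPF and control by at least 2-fold either way. Neutrophil markers were lower by at least 2-fold on the BHPF array in liver (5 of 5), ovary (4 of 5) and uterus (4 of 5). The part of these cells in the Hox values was not tested, and in bulk tissue fewer cells of a type and less RNA per cell cannot be told apart.

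Ovary and uterus showed nearly the same Hox genes above background, and liver showed fewer. Of the 39 genes, 17 were well above background on both liver arrays, 29 on both ovary arrays and 31 on both uterus arrays, and 28 of these were shared by ovary and uterus. Liver also had fewer of the 55681 probes above background on both arrays, 33057 against 38351 in the ovary and 35517 in the uterus. All 6 arrays showed 16 genes, most of them the low and middle numbers of HoxA and HoxB. Both ovary arrays and both uterus arrays, but no liver array, showed 9 genes, namely *Hoxa9*, *Hoxb6*, *Hoxb8*, *Hoxc6*, *Hoxd3*, *Hoxd4*, *Hoxd8*, *Hoxd9* and *Hoxd11*. *Hoxa7*, *Hoxc4* and *Hoxd10* were above background on those 4 arrays and on the control liver array. *Hoxa11* and *Hoxc11* were above background only on the uterus arrays, and *Hoxa10* on these and the control ovary array. No array showed *Hoxa4*, *Hoxb1*, *Hoxb13*, *Hoxc12*, *Hoxc13*, *Hoxd1* or *Hoxd13*. By cluster, both liver arrays showed 6 genes of HoxA, 6 of HoxB, 4 of HoxC and 1 of HoxD, the last being *Hoxd12*.

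**Figure D1:**
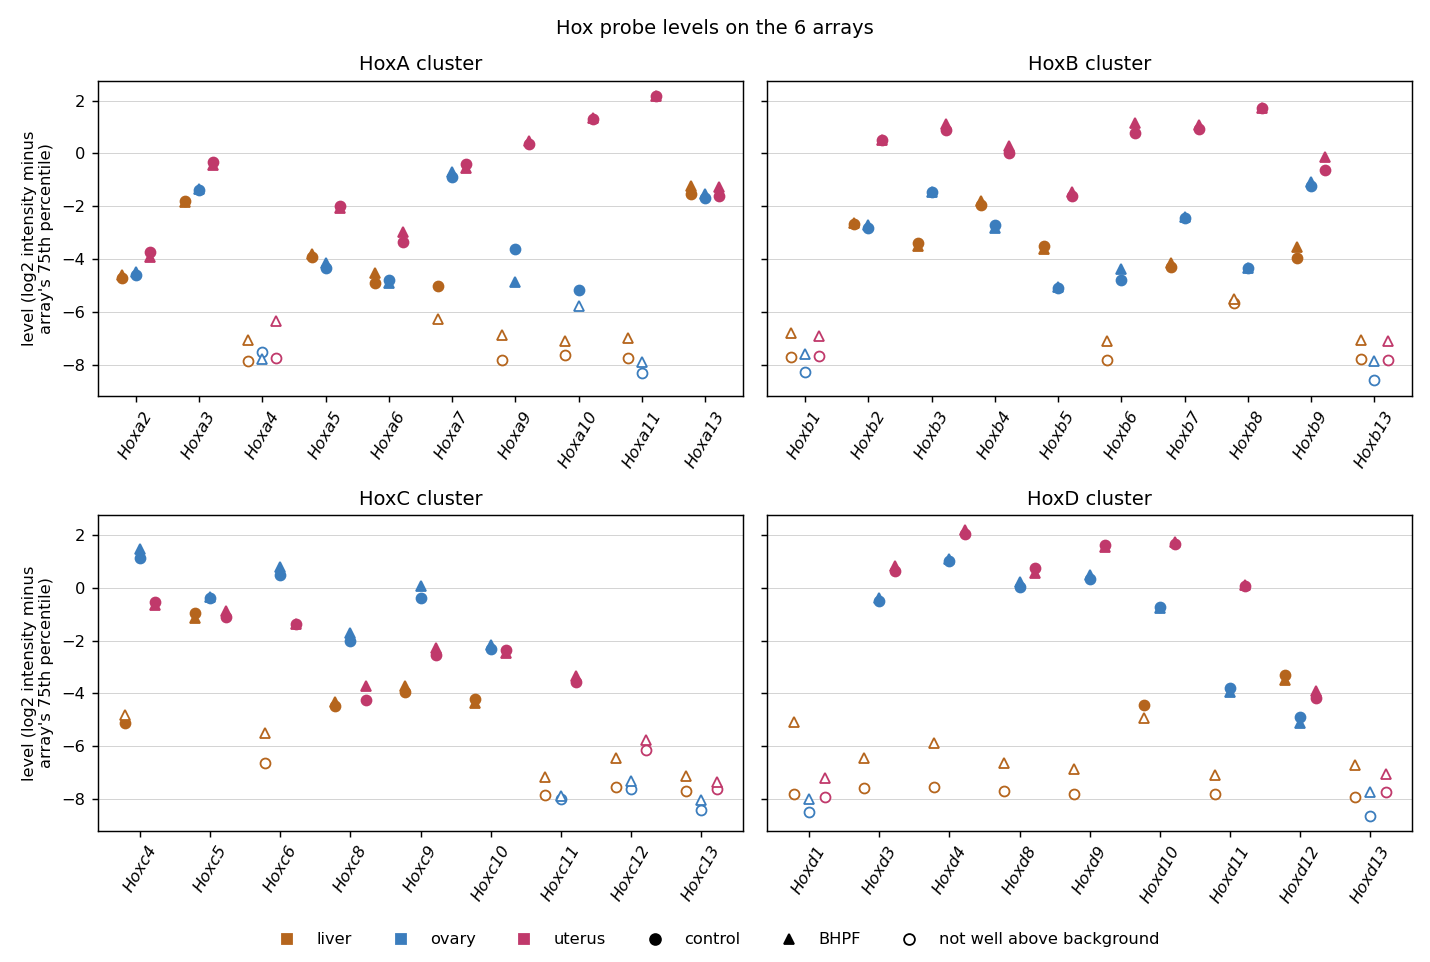
Levels of Hox genes on the 6 arrays, as log2 intensity minus the array's 75th percentile, with genes in order of position in 4 panels, one per cluster. Colours are tissues, circles control, triangles BHPF, and open symbols were not flagged as well above background. Levels can be compared between tissues within a gene but not between genes, whose probes differ. In HoxD the liver symbols from *Hoxd3* to *Hoxd9* are open, while those of ovary and uterus lie between -0.50 and 2.20.

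Tissues were compared with limma on all 44119 probes, with tissue and treatment as terms, so that the 2 arrays of a tissue, from different pools and treatments, served as its replicates. The spread then holds pool, array and any effect of BHPF that differs between tissues, with 2 residual degrees of freedom. A gene was called when the Benjamini-Hochberg adjusted p was under 0.05 and the fold at least 2. Differences below are in log2 units with the standard error of the fit. Where a probe was not above background on either array of a tissue, its fold is a lower bound. That bound is taken against the dimmest signal the scanner software flagged as well above background. The adjusted p comes from the fit of the probe's own readings. Readings called under background are those without this flag. In each pair of levels the control array comes first.

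Against liver, the uterus was called higher for 26 of the 32 genes, lower for 1, and not called for 5, where 18.0% of all probes were called higher and 14.2% lower. The ovary was called higher than liver for 16 genes and lower for *Hoxb5* and *Hoxd12*, against 18.3% and 16.4% of all probes. The uterus was called higher than the ovary for 16 genes and lower for 5, against 8.96% and 7.18% of all probes. The median difference of the 34 Hox probes was 4.21 for uterus minus liver, 1.83 for ovary minus liver and 1.44 for uterus minus ovary, where all probes had medians of 0.00, -0.06 and 0.10. Genes that pass the background flag in only 1 tissue had to differ. Against liver, a further 9 genes passed it in ovary and uterus but on no liver array. These 9 genes, with *Hoxa10*, *Hoxa11* and *Hoxc11*, could only come out higher than liver. The counts are therefore descriptions of the list. The BHPF uterus array did not decide the counts against liver, which were 25 higher and 1 lower without it.

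HoxA changed from a mild to a steep tissue code along its length. *Hoxa2*, which patterns the hindbrain in the embryo, lay between -4.73 and -3.74 on all arrays and was not called in any comparison.

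*Hoxa3* had levels of -1.81 and -1.82 in liver, -1.40 and -1.36 in the ovary and -0.32 and -0.42 in the uterus. *Hoxa5*, which is needed for lung and neck structures, stood at -3.91 and -3.79 in liver, -4.36 and -4.15 in the ovary and -1.998 and -2.06 in the uterus. *Hoxa6* stood at -4.90 and -4.54, -4.79 and -4.92, and -3.36 and -2.96 in the same order. In all 3 genes the uterus arrays lay above the other 4 without overlap, and the uterus was called higher than the ovary by 1.003 ± 0.13 for *Hoxa3* (adjusted p = 0.0145), 2.22 ± 0.14 for *Hoxa5* (adjusted p = 0.00367) and 1.70 ± 0.19 for *Hoxa6* (adjusted p = 0.0112). Liver and ovary were not called different in these genes.

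*Hoxa7* and *Hoxa9*, which are neighbours on the chromosome, divided the tissues differently. *Hoxa7* had levels of -5.01 and -6.26 in liver, the latter not above background, -0.88 and -0.69 in the ovary, and -0.41 and -0.54 in the uterus. Ovary and uterus both exceeded liver, by 4.85 ± 0.40 (adjusted p = 0.00221) and 5.16 ± 0.40 (adjusted p = 0.00207), or at least 18.1-fold and 22.3-fold with the BHPF liver array set to the dimmest signal above background, and differed from each other by 0.31 ± 0.40, which was not called (adjusted p = 0.606). *Hoxa9* was not above background in liver and had levels of -3.63 and -4.86 in the ovary and 0.37 and 0.47 in the uterus. The uterus arrays thus lay 25.3-fold above the ovary arrays on average (4.66 ± 0.56, adjusted p = 0.0124), and the second *Hoxa9* probe gave 4.83 ± 0.27 (adjusted p = 0.0029). Of the 4 listed oviduct genes, 3 were also called higher in the uterus than in the ovary, against 8.96% of all probes. These were *Ovgp1* at 6.44-fold, *Foxj1* at 3.70-fold and *Pax8* at 83.9-fold, and their part in the *Hoxa9* difference was not tested. The ovary was called at least 2.02-fold higher than liver by the brighter probe, whereas the bound of the second probe was 1.02-fold and was not called.

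*Hoxa10* and *Hoxa11*, both needed in the mouse for a uterus that can receive embryos, were almost confined to the uterus arrays. *Hoxa10* had levels of 1.29 and 1.35 in the uterus, -5.19 on the control ovary array and -5.80 on the BHPF ovary array, where it was not above background, as it was not in liver. The uterus exceeded the ovary at least 110.4-fold, with the BHPF ovary array set to the dimmest signal above background (fitted difference 6.82 ± 0.31, adjusted p = 0.00213), and liver at least 96.1-fold. *Hoxa11* had levels of 2.17 and 2.16 in the uterus and was not above background on the other 4 arrays. The uterus was thus at least 293-fold above the ovary and at least 172-fold above liver. As it passed the background flag through the uterus alone, it had to differ, and no p-value is given. Its antisense transcript *Hoxa11os*, which overlaps the gene on the opposite strand, followed it at 2.61 and 2.82 in the uterus, -4.82 and -4.49 in the ovary and -4.37 and -3.40 in liver (uterus minus ovary 7.37, adjusted p = 0.00182). The probes of both were placed by transcript accession, and whether they are strand-specific was not checked.

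*Hoxa13*, the last gene of the cluster and a marker of the vaginal and digital end of the axis, broke the series. Its brighter probe read -1.52 and -1.22 in liver, -1.71 and -1.55 in the ovary and -1.60 and -1.29 in the uterus. The 3 tissues overlapped, and the uterus and ovary differed by 0.19 ± 0.13 (adjusted p = 0.358). The second *Hoxa13* probe was not above background on any array, so the probes of this gene disagreed on whether it was above background.

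The start regions of 22 of the 39 genes were listed in the RefSeq annotation of GRCm38.p6, as 24 windows of 300 bases from 250 before to 50 after a start. Those of *Hoxa7*, *Hoxa9*, *Hoxa10* and *Hoxa11* are shown because the tissue code steepens across these genes, that of *Hoxb8* because it had the largest measured difference between uterus and ovary in its cluster, and that of *Hoxd13* as a gene not above background on any array. They were searched on both strands for the TATA box TATAAA, the shared HOX and PBX site TGATNNAT and the palindromic oestrogen response element with 3 free bases at its centre, and capitals mark matches, including the reverse complement. The windows, on the gene's strand, are *Hoxa7* at chr6:52218524-52218823 (minus strand), *Hoxa9* at chr6:52227321-52227620 (minus), the nearer of the 2 listed starts of *Hoxa10* to *Hoxa9* at chr6:52234890-52235189 (minus), *Hoxa11* at chr6:52245761-52246060 (minus), *Hoxb8* at chr11:96281655-96281954 (plus) and *Hoxd13* at chr2:74667975-74668274 (plus).
Hoxa7: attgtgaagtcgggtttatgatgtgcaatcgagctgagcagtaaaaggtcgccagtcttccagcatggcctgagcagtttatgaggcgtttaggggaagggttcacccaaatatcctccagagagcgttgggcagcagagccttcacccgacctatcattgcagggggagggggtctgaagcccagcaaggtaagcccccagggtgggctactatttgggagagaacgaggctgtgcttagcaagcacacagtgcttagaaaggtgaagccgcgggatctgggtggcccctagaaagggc
Hoxa9: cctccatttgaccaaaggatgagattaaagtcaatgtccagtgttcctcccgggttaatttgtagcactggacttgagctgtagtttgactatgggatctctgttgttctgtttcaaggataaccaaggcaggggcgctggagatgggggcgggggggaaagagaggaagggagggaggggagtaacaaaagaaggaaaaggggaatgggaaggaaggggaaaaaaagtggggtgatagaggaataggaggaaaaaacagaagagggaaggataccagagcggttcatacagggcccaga
Hoxa10: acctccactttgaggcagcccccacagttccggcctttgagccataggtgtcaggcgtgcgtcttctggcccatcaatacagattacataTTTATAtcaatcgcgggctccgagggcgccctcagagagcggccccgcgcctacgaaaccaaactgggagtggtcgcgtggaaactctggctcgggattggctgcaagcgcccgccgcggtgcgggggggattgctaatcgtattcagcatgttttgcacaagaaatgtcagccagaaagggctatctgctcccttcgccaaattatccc
Hoxa11: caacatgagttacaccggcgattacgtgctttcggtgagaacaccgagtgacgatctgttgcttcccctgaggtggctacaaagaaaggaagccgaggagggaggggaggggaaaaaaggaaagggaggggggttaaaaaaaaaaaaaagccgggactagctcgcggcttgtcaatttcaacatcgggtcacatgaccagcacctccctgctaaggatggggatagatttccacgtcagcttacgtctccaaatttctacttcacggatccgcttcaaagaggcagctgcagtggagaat
Hoxb8: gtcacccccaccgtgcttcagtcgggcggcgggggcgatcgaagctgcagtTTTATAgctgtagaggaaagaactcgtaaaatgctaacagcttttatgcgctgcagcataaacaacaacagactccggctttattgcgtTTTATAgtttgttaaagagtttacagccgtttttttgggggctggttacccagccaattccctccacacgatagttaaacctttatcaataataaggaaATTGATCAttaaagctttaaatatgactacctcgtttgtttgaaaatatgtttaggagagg
Hoxd13: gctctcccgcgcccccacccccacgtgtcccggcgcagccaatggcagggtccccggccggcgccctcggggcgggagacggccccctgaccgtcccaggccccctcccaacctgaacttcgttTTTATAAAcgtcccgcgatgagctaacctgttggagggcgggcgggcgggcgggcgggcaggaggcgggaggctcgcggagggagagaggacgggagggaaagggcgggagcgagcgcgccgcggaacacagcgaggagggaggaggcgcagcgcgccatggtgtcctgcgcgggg

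TATAAA was found in 4 of the 24 Hox windows and in 13.6% of 32851 windows of all genes, TGATNNAT in 4 and in 8.85%, and the oestrogen response element in 0 and in 0.07%. *Hoxb8* held 2 TATA matches, 199 and 110 bases before the listed start, and a HOX and PBX match 11 bases before it. The TATA match of *Hoxa10* began 160 bases before its start and the overlapping pair in *Hoxd13* 126 bases before. The shown windows of *Hoxa7*, *Hoxa9* and *Hoxa11* held no match, which says only that these letters are not in these 300 bases. Hox windows had a median GC content of 57.7% and 14.5 CpG dinucleotides, where all windows had 52.7% and 7.0.

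HoxB genes were brightest in the uterus. All 8 of its measured genes were called higher in the uterus than in liver, and *Hoxb2* to *Hoxb8* were also called higher in the uterus than in the ovary. *Hoxb2* had levels of -2.66 and -2.65 in liver, -2.81 and -2.71 in the ovary and 0.49 and 0.51 in the uterus, a difference between uterus and ovary of 3.26 ± 0.13 (adjusted p = 0.00188). *Hoxb4*, known from blood stem cells, stood at -1.97 and -1.79, -2.70 and -2.83, and 0.02 and 0.28 in the same order. In both genes the uterus arrays lay above the other 4.

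*Hoxb3* was graded, at -3.38 and -3.50 in liver, -1.47 and -1.46 in the ovary and 0.89 and 1.13 in the uterus. Its second probe gave the same order, but the ovary's difference from liver was 1.97 ± 0.15 by the first and 0.63 ± 0.17 by the second, which was not called. *Hoxb7* was graded likewise, at -4.30 and -4.14, -2.44 and -2.43, and 0.93 and 1.09. *Hoxb5* ran the other way between liver and ovary: it read -3.51 and -3.63 in liver, -5.08 and -5.05 in the ovary and -1.62 and -1.48 in the uterus, and the ovary was called lower than liver (-1.49 ± 0.14, adjusted p = 0.00295).

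*Hoxb6* and *Hoxb8* were not above background in liver and had the widest gaps between the reproductive tissues in HoxB. *Hoxb6* had levels of -4.78 and -4.39 in the ovary and 0.79 and 1.16 in the uterus, a 47.0-fold difference (5.55 ± 0.16, adjusted p = 0.00182). *Hoxb8* had -4.35 and -4.33 in the ovary and 1.74 and 1.72 in the uterus, a 67.0-fold difference (6.07 ± 0.13, adjusted p = 0.00182), and the uterus was at least 127-fold above liver. *Hoxb9* ended the pattern. It read -3.96 and -3.55 in liver, -1.23 and -1.06 in the ovary and -0.61 and -0.15 in the uterus, so both tissues were called above liver while their own difference of 0.77 ± 0.15 was under 2-fold. *Hoxb13*, the posterior gene known from the prostate and hindgut, was not above background on any array.

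HoxC was the only cluster whose genes were mostly brighter in the ovary than in the uterus. *Hoxc4* had levels of -5.12 and -4.82 in liver, the latter not above background, 1.14 and 1.46 in the ovary and -0.52 and -0.64 in the uterus. *Hoxc6*, a gene of the thoracic region, was not above background in liver and read 0.48 and 0.80 in the ovary and -1.36 and -1.35 in the uterus. The ovary exceeded the uterus 3.67-fold for *Hoxc4* (adjusted p = 0.00717) and 4.001-fold for *Hoxc6* (adjusted p = 0.0236), with no overlap between the tissues.

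*Hoxc8* and *Hoxc9*, which set the identity of the lower thorax, had the same order. *Hoxc8* stood at -4.49 and -4.33 in liver, -2.02 and -1.72 in the ovary and -4.24 and -3.73 in the uterus, so the uterus lay close to liver (0.42 ± 0.15, not called). *Hoxc9* stood at -3.94 and -3.70, -0.37 and 0.05, and -2.56 and -2.29 in the same order. The ovary was 4.35-fold above the uterus for *Hoxc8* (adjusted p = 0.00442) and 4.81-fold for *Hoxc9* (adjusted p = 0.00311).

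The other HoxC genes were not called brighter in the ovary than in the uterus. *Hoxc5* lay between -1.12 and -0.36 on all arrays and was not called in any comparison. *Hoxc10*, a lumbar and hindlimb gene, read -4.23 and -4.36 in liver, -2.30 and -2.18 in the ovary and -2.37 and -2.49 in the uterus, so that ovary (2.05 ± 0.14, adjusted p = 0.00159) and uterus (1.87 ± 0.14, adjusted p = 0.00205) were called above liver and differed from each other by -0.19 ± 0.14 (adjusted p = 0.393). *Hoxc11* was above background in the uterus alone and so had to differ, at -3.57 and -3.34, at least 5.98-fold above the ovary. *Hoxc12* and *Hoxc13*, the latter known from hair and nails, were not above background on any array.

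HoxD was shared by ovary and uterus and mostly under background in liver. *Hoxd3* read -0.50 and -0.40 in the ovary and 0.64 and 0.83 in the uterus, *Hoxd4* 1.03 and 1.11 and 2.02 and 2.20, *Hoxd8* 0.04 and 0.24 and 0.74 and 0.58, and *Hoxd9* 0.33 and 0.47 and 1.63 and 1.53. None of these 4 was above background in liver, and the ovary was at least 28.2-fold above liver for *Hoxd3*, 80.5-fold for *Hoxd4*, 42.4-fold for *Hoxd8* and 50.8-fold for *Hoxd9*. The uterus arrays lay above the ovary arrays in all 4 genes, but their differences, from 0.52 to 1.18, missed the adjusted threshold (adjusted p from 0.0647 to 0.326). The spread behind these p-values includes the liver readings under background. For *Hoxd4* the BHPF and control readings differed by 1.65 in liver, 0.08 in the ovary and 0.17 in the uterus. Its uterus minus ovary difference was 0.997 within the control arrays and 1.09 within the BHPF arrays.

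From *Hoxd10* on the uterus pulled away. *Hoxd10*, which is known to pattern the limb together with its neighbours, read -4.44 and -4.94 in liver, the latter not above background, -0.73 and -0.76 in the ovary and 1.64 and 1.74 in the uterus (uterus minus ovary 2.44 ± 0.20, adjusted p = 0.00568). *Hoxd11* was not above background in liver and read -3.79 and -3.93 in the ovary and 0.07 and 0.10 in the uterus (3.95 ± 0.26, adjusted p = 0.00367). *Hoxd12* differed from the rest of the cluster, with its highest levels in liver, -3.30 and -3.50, against -4.90 and -5.11 in the ovary and -4.19 and -3.91 in the uterus. The ovary was called lower than liver for it (-1.60 ± 0.19, adjusted p = 0.00477), and *Hoxd1* and *Hoxd13* were not above background on any array.

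**Figure D2:**
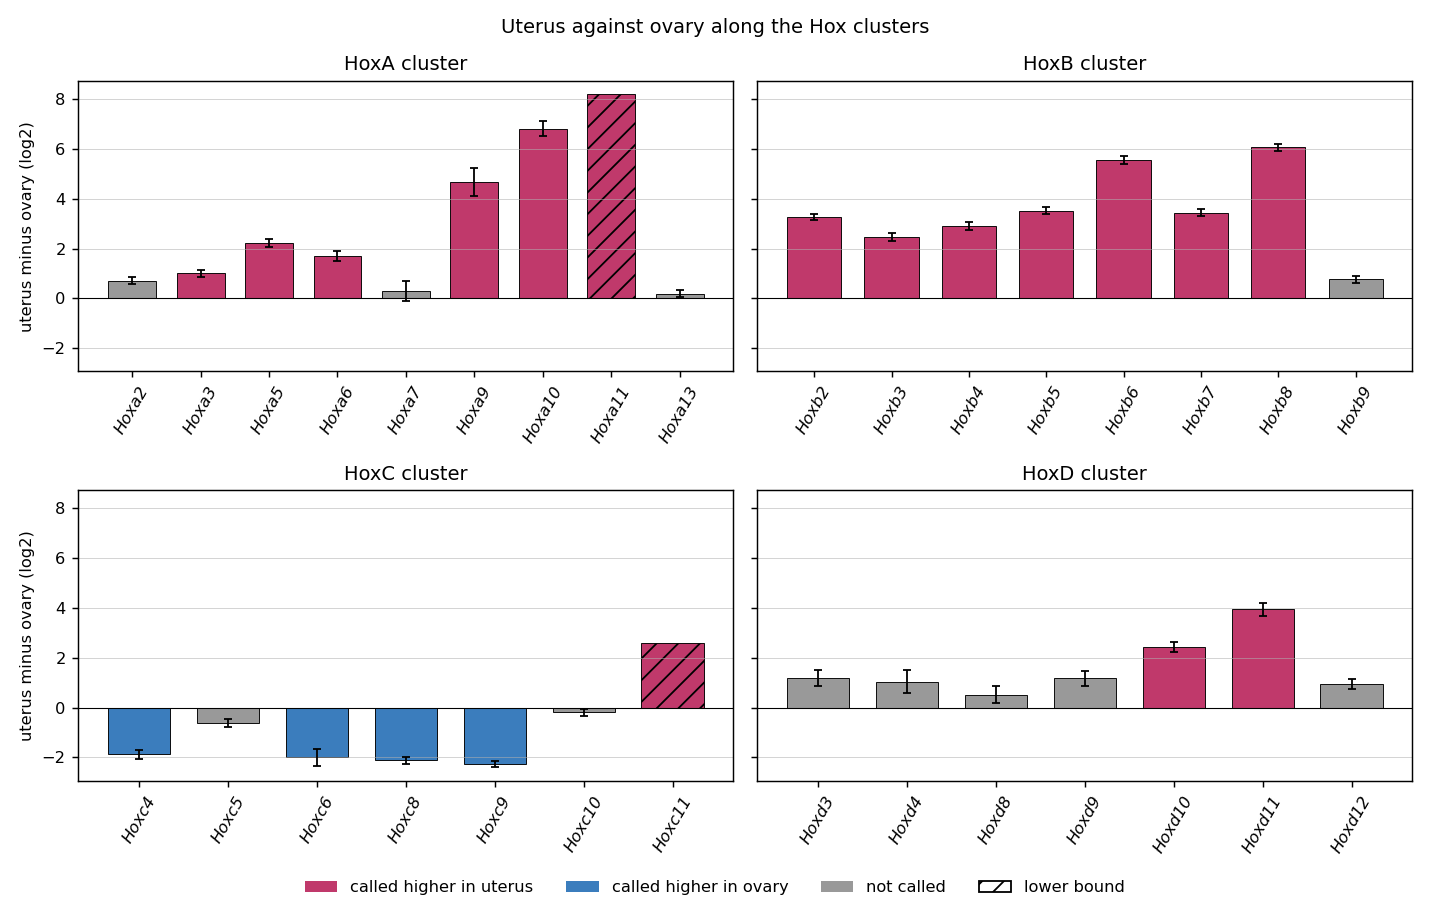
Uterus minus ovary in log2 units for Hox genes in order of position, 1 panel per cluster, n = 2 arrays per tissue. Bars show the difference with its standard error, hatched bars are lower bounds, red bars were called higher in the uterus, blue bars higher in the ovary and grey bars neither. HoxA ranges from 0.19 at *Hoxa13* to a bound of 8.20 at *Hoxa11*, *Hoxb2* to *Hoxb8* are all red, and the blue bars of HoxC lie between -2.27 and -1.88.

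The direction of the uterus and ovary differences was steadier than the calls. All 16 genes higher and all 5 genes lower in the uterus kept their sign when each of the 6 arrays was left out in turn, and within the control arrays alone *Hoxa9* differed by 3.997, *Hoxb8* by 6.08, *Hoxc9* by -2.19 and *Hoxd11* by 3.86. The calls fell to 8 higher and 0 lower without the BHPF uterus array, to 10 and 1 without the control uterus array, and to 2 lower without either ovary array. Called in each of the 6 fits were *Hoxa10*, *Hoxa11*, *Hoxb2*, *Hoxb5*, *Hoxb6*, *Hoxb7*, *Hoxb8* and *Hoxc11*, of which *Hoxa11* and *Hoxc11* passed the background flag through the uterus arrays alone and so had to differ. Each call of a lower level in the uterus was lost in at least 1 fit, the highest adjusted p being 0.0531 for *Hoxc9*, 0.0547 for *Hoxc8*, 0.0656 for *Hoxc4* and 0.144 for *Hoxc6* in the HoxC cluster.

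The partners of Hox proteins were measured in all tissues. The PBX and MEIS families bind DNA together with Hox proteins and raise their selectivity, and all 9 listed genes were above background on every array. Against liver, 6 were called higher in the uterus and 3 in the ovary, and between uterus and ovary 4 were called higher and 1 lower, with no call lower than liver. All probes had 18.0% called higher in the uterus and 18.3% in the ovary than in liver, and 8.96% higher and 7.18% lower in the uterus than in the ovary. *Meis1* read 0.71 and 0.92 in liver, 0.96 and 0.82 in the ovary and 2.52 and 2.44 in the uterus, and *Meis2* -1.50 and -1.46, -0.33 and -0.38, and 1.97 and 1.96. *Pbx3* had its highest levels in the ovary, at 1.16 and 1.43 against -0.20 and -0.37 in the uterus (uterus minus ovary -1.58, adjusted p = 0.00927).

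Polycomb and trithorax proteins keep Hox clusters off or on in dividing cells. Of 19 Polycomb genes, whose products keep Hox clusters silent through marks on histones, 5 were called higher in the uterus and 5 in the ovary than in liver, against 18.0% and 18.3% of all probes, and none lower. Lower in the uterus than in the ovary were 2, against 7.18% of all probes. Those 2 were *Cbx2* and *Ezh2*, named after their values were seen. The brightest of the list, *Cbx6*, read 1.35 and 1.36 in liver, 2.06 and 2.14 in the ovary and 2.60 and 2.61 in the uterus. None of 8 trithorax and demethylase genes, whose products keep Hox clusters active, was called in any of the 3 comparisons. Of all probes, 18.0% were called higher and 14.2% lower in the uterus than in liver, and 18.3% and 16.4% in the ovary. Between uterus and ovary 8.96% were called higher and 7.18% lower in the uterus.

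Retinoic acid, a vitamin A derivative that switches on the low-numbered Hox genes in the embryo, is made and sensed by several genes of the upstream list. Of its 10 measured genes, 2 were called higher and 4 lower in the uterus than in liver, against 18.0% and 14.2% of all probes. In the ovary 2 were called higher and 6 lower than in liver, against 18.3% and 16.4%, and 3 were higher in the uterus than in the ovary, against 8.96%. *Aldh1a2*, the enzyme that makes retinoic acid, read -2.67 and -2.05 in liver, 2.23 and 2.30 in the ovary and 2.52 and 2.53 in the uterus. Its receptor gene *Rarb* ran the other way between liver and ovary, at 0.35 and 0.35 in liver, -3.69 and -3.48 in the ovary and -1.37 and -1.27 in the uterus. *Cdx1* and *Cdx2*, activators of the middle Hox genes in the embryo, were not above background on any array.

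Of 17 measured genes that flank the clusters, 2 were called higher and 4 lower in the uterus than in liver, against 18.0% and 14.2% of all probes, and 0 higher and 2 lower in the uterus than in the ovary, against 8.96% and 7.18%. *Hibadh*, next to HoxA, read 3.9996 and 3.87 in liver, 2.14 and 2.17 in the ovary and 2.10 and 2.19 in the uterus, and *Mtx2*, next to HoxD, 3.15 and 3.33, 2.43 and 2.45, and 2.02 and 2.02. *Evx1*, a homeobox gene just beyond *Hoxa13* that was named after its values were seen, was above background in the ovary alone, at -1.17 and -1.31, and there at least 16.3-fold above liver and 18.4-fold above the uterus. It thus had the opposite order to *Hoxa10* and *Hoxa11* between ovary and uterus. The antisense transcript *Hoxd3os1* was above background in the ovary, at -2.85 and -2.71, and the uterus, at -3.40 and -3.18, and not in liver.

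Of 15 genes tied to *Hoxa10* or *Hoxa11* in the uterus, 9 were called higher and 2 lower in the uterus than in liver, against 18.0% and 14.2% of all probes, and 6 higher and 2 lower in the uterus than in the ovary, against 8.96% and 7.18%. *Emx2*, a homeobox gene known as a target of *Hoxa10*, read 0.66 and 0.76 in the ovary and 2.21 and 2.31 in the uterus, a difference of 1.55 that was not called (adjusted p = 0.0515). *Esr1*, the oestrogen receptor, read 1.09 and 1.66 in liver, 0.07 and 0.21 in the ovary and 2.75 and 2.77 in the uterus. *Msx1*, a homeobox gene of the uterine epithelium named after its values were seen, read -4.35 and -4.09 in the ovary and 2.07 and 2.31 in the uterus (uterus minus ovary 6.41, adjusted p = 0.00182).

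With BHPF, 1 Hox gene, in the ovary, differed from the control by 2-fold or more where both arrays measured it. With 1 array per group no test of this difference was possible within a tissue. No Hox gene of 20 evaluated reached 2-fold in liver, where 7.09% of all probes did, 1 of 30 in the ovary, where 1.27% did, and none of 32 in the uterus, where 2.65% did. Among genes above background on both arrays the log2 ratio of BHPF to control ran from -0.19 to 0.41 in liver (17 genes), from -1.23 to 0.42 in the ovary (29 genes) and from -0.17 to 0.51 in the uterus (31 genes). *Hoxa7* in liver was above background on the control array alone, so its ratio is known only to be 0 or lower, and its own values differed by -1.25. The median over Hox probes was 0.14, 0.09 and 0.10, where the median over all probes was 0.08, 0.02 and 0.03.

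The noise between repeated spots of a probe gives a technical floor for these ratios, with no share of the animals in it. Its SD on the log2 ratio was 0.156 in liver, 0.149 in the ovary and 0.157 in the uterus, and larger for dim probes. Within 2 such SDs, taken for the gene's own level, lay 15 of 17 Hox genes in liver, 24 of 29 in the ovary and 26 of 31 in the uterus, where all probes had 64.9%, 84.3% and 80.3%. Those beyond it and higher with BHPF were *Hoxa13* (0.30) and *Hoxb9* (0.41) in liver, and *Hoxa6* (0.40), *Hoxa13* (0.32), *Hoxb6* (0.37), *Hoxb9* (0.47) and *Hoxc8* (0.51) in the uterus. Each of these ratios is under 2-fold.

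*Hoxa9* in the ovary was the gene that reached 2-fold. The control array read -3.63 and the BHPF array -4.86, so its log2 ratio was -1.23 against a spot SD of 0.215. The second *Hoxa9* probe read -4.83 on the control array and was not above background on the BHPF array, which gives a ratio of -0.83 or lower, and *Hoxa10* read -5.19 and was then not above background, a ratio of -0.55 or lower. In the uterus the same *Hoxa9* probe had a ratio of 0.10 and *Hoxa10* of 0.05. With the normexp background correction the ovary ratio of *Hoxa9* was -0.92, which is under 2-fold.

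Of 4 markers of the oviduct, the tube beside the ovary, 1 was at least 2-fold lower on the BHPF ovary array and none higher. Of all probes, 1.27% changed that much either way. *Ovgp1*, the oviductal glycoprotein, read -0.84 on the control and -1.58 on the BHPF array. *Foxj1*, a regulator of ciliated cells, read -3.11 and -4.28, and *Dnah5*, a part of cilia, -5.19 and then under background. *Pax8* read -6.06 on the control array and -5.73, not above background, on the other. The summed intensity of the 4 oviduct genes was 0.715 and 0.409 in units of the array's 75th percentile, while that of the 8 granulosa and theca genes was 67.0 and 67.5. Among the latter none reached 2-fold, but *Star*, which moves cholesterol for steroid synthesis, read -0.29 and -1.26, a ratio of -0.97 that is larger in size than that of *Ovgp1* (-0.74). The part of the oviduct in the *Hoxa9* ratio was not tested.

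**Figure D3:**
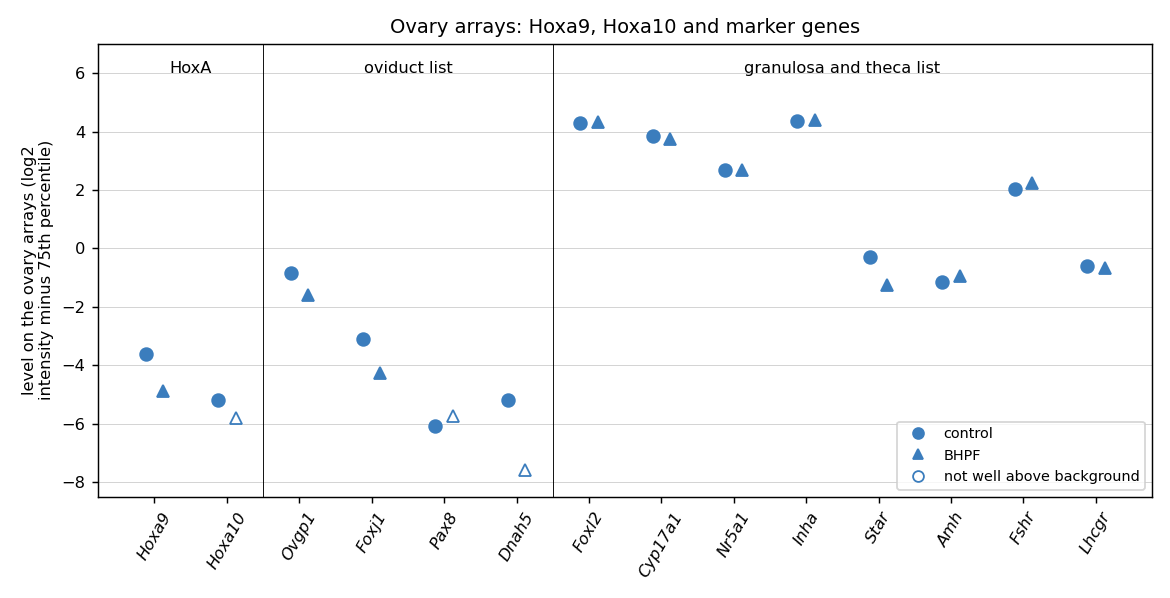
Levels on the 2 ovary arrays, as log2 intensity minus the array's 75th percentile, of *Hoxa9* and *Hoxa10*, the 4 oviduct genes and the 8 granulosa and theca genes. Circles are the control array, triangles the BHPF array, and open symbols were not flagged as well above background. *Hoxa9*, *Ovgp1*, *Foxj1*, *Dnah5* and *Star* are lower on the BHPF array, *Pax8* is near background on both, and the other granulosa and theca genes differ by at most 0.19.

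All 6 measured HoxC genes of the ovary were above the control on the BHPF array, where 54.6% of all probes were. They ran from 0.02 for *Hoxc5* to 0.42 for *Hoxc9* with a median of 0.31, and *Hoxc4* (0.31), *Hoxc6* (0.32), *Hoxc8* (0.31) and *Hoxc9* lay beyond 2 spot SDs. Of 4 adipocyte markers evaluated on the same arrays, 2 exceeded 2-fold on the BHPF side, *Adipoq* (1.35) and *Cfd* (2.05). The rest did not reach 2-fold either way, and the median of the 4 was 0.70. The summed intensity of the list was 2.97 and 3.64. In the uterus 3 of 3 were at least 2-fold lower, with sums of 3.20 and 0.822. Of all probes, 1.27% in the ovary and 2.65% in the uterus changed by at least 2-fold either way. The part of fat in the Hox values was not tested. The HoxB genes of the ovary ran from -0.13 to 0.39 and the HoxD genes from -0.21 to 0.19, all within 2 spot SDs. In the uterus HoxB ran from -0.02 to 0.47, HoxC from -0.12 to 0.51 and HoxD from -0.17 to 0.28. Hepatocyte markers were brighter on the BHPF uterus array.

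**Figure D4:**
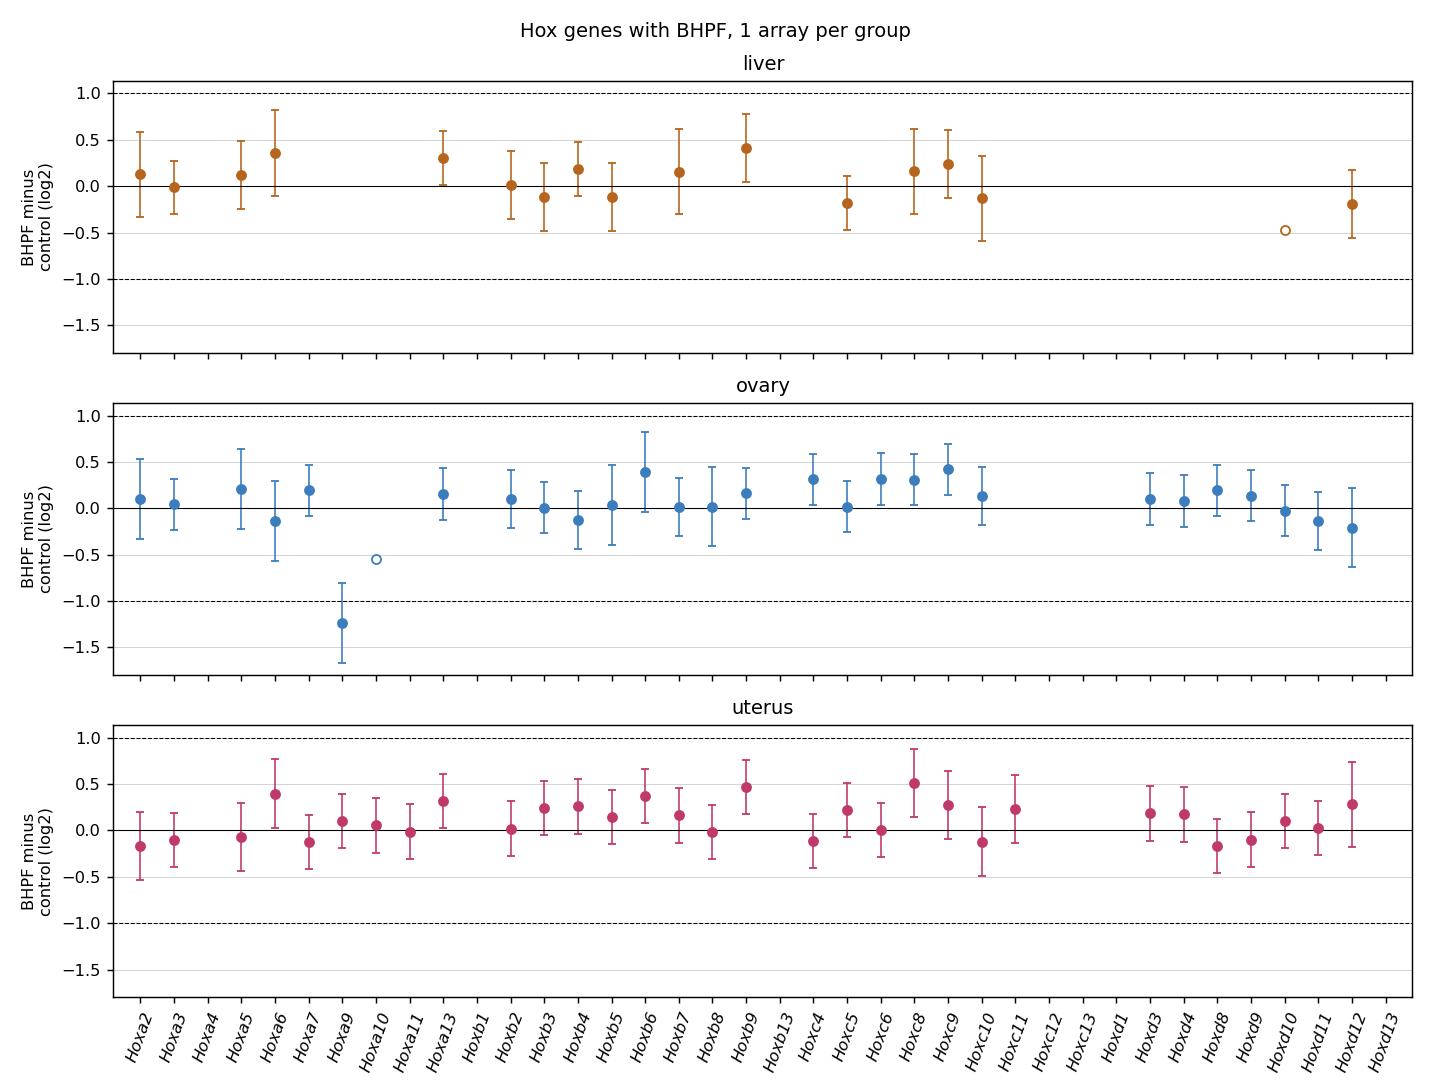
BHPF minus control in log2 units for Hox genes in liver, ovary and uterus, 1 array per group. Filled points are genes above background on both arrays, with bars of 2 SDs of the noise between spots, open points are bounds for genes above background on 1 array, and dashed lines mark 2-fold. *Hoxa9* in the ovary is the only point past a dashed line.

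An effect of BHPF shared by the 3 tissues was tested in the same limma fit, with the tissues as blocks. None of the 44119 probes passed the adjusted threshold, while 2302 (5.22%) had an unadjusted p under 0.05, and limma with a trend of the variance on intensity called 1 probe, which was no Hox probe. Of the 32 Hox genes, 24 had a shared difference above 0, as did 62.4% of all probes, and the values ran from -0.39 for *Hoxa7* to 0.63 for *Hoxd4*. *Hoxb6*, at 0.49 ± 0.13, *Hoxb9*, at 0.35 ± 0.12, and *Hoxc9*, at 0.31 ± 0.11, had an unadjusted p under 0.05, each with an adjusted p of 0.77. With the 2 uterus arrays exchanged, as the table's headings have them, 21 of the 32 genes and 59.6% of all probes lay above 0. The values became 0.25 for *Hoxb6*, 0.03 for *Hoxb9* and 0.13 for *Hoxc9*, no Hox gene had an unadjusted p under 0.05, and 0 probes passed the adjusted threshold while 1189 had an unadjusted p under 0.05. As the tissues of a treatment may come from the same mice, they may not be independent replicates of BHPF. The estimates of the 9 genes above background in ovary and uterus but not in liver, *Hoxb6* and *Hoxd4* among them, rest in part on liver readings under background. For *Hoxb6* the differences were 0.71 in liver, 0.39 in the ovary and 0.37 in the uterus. The same limit holds for *Hoxa10*, *Hoxa11* and *Hoxc11*, and for *Hoxa7*, *Hoxc4* and *Hoxd10* on the BHPF liver array. *Hoxa11* differed by -0.01 in the uterus, and by 0.73 in liver and 0.42 in the ovary, where it was under background. The count above 0 includes such genes.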

How the data were processed

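RNA extracted with TRIzol from pools of 3 mice was labelled with Cy3 and hybridized to 6 one-colour Agilent mouse arrays designed on mm9. The authors extracted the scans with Feature Extraction (9.1 in the submitters' processing notes, 11.5.1.1 in the file headers) and deposited for each spot its intensity after background subtraction, not logged, with median spot and background intensities and flags. The authors' deposited log2 table, from GeneSpring GX after a percentile shift, served as an alternative only.

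Control and outlier spots were left out, log2 intensities of the spots of a probe were averaged, and each array's 75th percentile over 55681 probes was subtracted. No Hox spot was saturated. Probes were named through their accession in a RefSeq table of GRCm38.p6 (26762 probes named), and a gene was given by its probe of highest mean level, with a second probe beside it where they disagreed. Promoter windows came from RefSeq on the same build.

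Arrays were grouped by their titles. Between 61.3% and 74.5% of probes were well above background per array. Tissues and the shared BHPF effect were fitted with limma 3.58.1 (R 4.3.3; lmFit and eBayes, tissue plus treatment, prior degrees of freedom 1.94), and p-values were adjusted over 44119 probes, after the fit was tested on simulated data. They measure the spread between arrays and pools. Where a probe was above background on 1 side only, its fold was taken against the dimmest signal well above background on the other side. Figures and tables were made with Python 3.11.15. All Hox genes and at most 5 genes per further list, the brightest, could be named. Outside this rule are the genes marked as named after their values were seen, and *Cdx1* and *Cdx2*. The Hox genes, lists and comparisons were chosen with earlier results of these data known. Alternatives covered background correction (normexp with an offset of 50, run on median intensities, since no mean intensity was in the files used here), scaling, filters, bounds, thresholds, probes and left-out arrays. No protein sequences were used here. Values of 2 genes that the counts include are not reported here, and the figures leave them out.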

Additional observations from a re-analysis of the deposited data

How the results depend on the processing

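Of the 204 values recomputed for the comparisons, 172 kept their direction and stayed close to the reported value, 32 moved, and none turned from a call in one direction to the other. For single genes, 1550 tissue differences were the same, 49 lost their call, 40 gained one and 17 moved, and 846 BHPF ratios were the same and 133 moved. No paired analysis was possible because each group has 1 array and the labels carry no replicate numbers, so that treatment was a term in the tissue comparisons and tissue in that of BHPF.

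The counts against 2-fold moved as follows. With BHPF in liver, 0 genes became 1 with the mean of a gene's probes or with own values in place of bounds (*Hoxa7* in both), and 8 with no filter on dim probes, 7 of them below background on both arrays. In the ovary 1 became 0 with normexp, and in the uterus 0 became 1 with no filter. From the authors' table, with uterus columns as headed or exchanged, 14 genes in place of 26 were higher in the uterus than in liver, 9 in place of 16 higher in the ovary than in liver, and 9 in place of 16 higher in the uterus than in the ovary, since that table leaves out probes below background in a tissue. Lower in the uterus than in liver were 2 in place of 1 with the 50th percentile or quantile normalization, and 0 with the mean of the probes. Leaving out 1 array gave 8 to 19 genes higher and 0 to 5 lower in the uterus than in the ovary, in fits with 1 residual degree of freedom.

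The median BHPF ratio of the Hox genes, bounds included, was 0.06 in liver, and -0.19 with the 50th percentile, -0.23 with quantile normalization, 0.13 with genes above background on both arrays, 0.12 with the mean of the probes or with own values, 0.13 with normexp and 0.36 with no filter. In the ovary it was 0.09 and 0.16 with normexp. In the uterus it was 0.10, and 0.023 with the 50th percentile, 0.17 with no filter, -0.10 from the authors' table as headed and -0.10 with the 2 uterus arrays exchanged. The exchanged settings were chosen after seeing the data. The causes of these moves were not tested unless stated. Signals near background limit what can be said of Hox genes in liver, and 1 array per group limits every BHPF ratio.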
